A study of Mus musculus with 6 samples.

Results

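The nuclear genes for the subunits of the mitochondrial respiratory chain and ATP synthase are described here in RAW264.7 cells, a mouse macrophage-like line, carrying an Fbxw11 vector or a control vector. Members were taken by symbol from the protein-coding rows of the deposited expression table: symbols that start with Nduf, a letter a, b, c, s or v and a digit, Sdha to Sdhd, and symbols that start with Uqcr, Cox4 to Cox8 or Atp5. The rule found 88 genes among 56748, of which 21970 were protein-coding: 39 for complex I, 4 for complex II, 8 for complex III, 19 for complex IV and 18 for complex V. They lay on 19 chromosomes, with at most 8 on any of them. The 88 rows carried 87 distinct symbols, because Atp5o was listed under 2 gene identifiers. The row named Cox5b-ps is described as a pseudogene in the table although its biotype is protein-coding.

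Both groups were RAW264.7 cells infected with lentivirus, 3 libraries each. The Fbxw11 group received a vector that carries Fbxw11 and, as its name reads, GFP behind a pGk promoter. The control group received the control vector, whose contents are not described further than the library names, which read GFP. Cells of both groups were sorted before RNA was purified, and no time after infection is given in the labels. Whether a group's libraries are separate infections or cultures is not said in the labels, and p-values therefore reflect the spread among the libraries sequenced, possibly a technical spread.

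The respiratory chain passes electrons from NADH through complex I, or from succinate through complex II, to ubiquinone, then through complex III and cytochrome c to complex IV, where oxygen is reduced. Complexes I, III and IV pump protons across the inner mitochondrial membrane, and complex V, the ATP synthase, lets them flow back while it makes ATP. Most subunits are encoded in the nucleus and imported, and a small set that forms the membrane core of complexes I, III, IV and V is encoded by mitochondrial DNA. In macrophages, the balance between this pathway and glycolysis is known to differ between activation states.

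Values were FPKM, fragments scaled to gene length and to library size. Between 16191971 and 18951653 reads per library could be recovered from them. Fbxw11, an F-box protein that selects substrates for an SCF ubiquitin ligase, measured 36.1 ± 0.409 FPKM in control and 271 ± 2.74 in Fbxw11 libraries (mean ± SD, n = 3 libraries per group), 7.51-fold higher (limma, adjusted p = 8.54e-08). All 10 macrophage markers examined were present, at means of 23.9 to 2487 FPKM, and 3 of them rose (Adgre1, Itgam and Lyz2). Of 12 markers of other cell types, 9 lay under a mean of 1 FPKM. The remaining 3, the B cell markers Cd79a and Ms4a1 and the endothelial marker Pecam1, lay between 1.05 and 2.16 FPKM. All 12 summed to 4.9996 ± 0.219 FPKM in control and 4.43 ± 0.640 in Fbxw11 libraries, and Col3a1 and Hbb-bs had 0 reads. These are bulk values, in which less RNA per cell and fewer cells of a kind cannot be told apart.

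The test was limma on log2(FPKM + 1), for every gene whose mean over the 6 libraries reached 1 FPKM, and all p-values were adjusted over all 10898 tested genes (Benjamini-Hochberg). "Rose" and "fell" are used for genes with an adjusted p under 0.05. Log2 fold changes are Fbxw11 against control on that scale. Of the 88 members, 78 passed the filter: 36 of complex I, all of complexes II and III, 13 of complex IV and 17 of complex V.

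Expression of the respiratory chain genes differed little between the groups. Only 1 of the 78 tested members rose, Atp5g1, and none fell, while 9.24% of all tested genes were called, 4.6% upward and 4.64% downward. On the TPM scale 353 of the 1070 calls among all genes were upward, against 501 of 1007 on the authors' scale. With voom on recovered reads Atp5g1 was again the one called member, against 14.3% of all tested genes. In that fit 8 members had an unadjusted p under 0.05, against 27.9% of all. With limma and no adjustment, 3 members had a p under 0.05 (3.85%), against 24.6% of all tested genes. Without library 3 of both groups, 23 of the 78 members did in the same test, against 25.2% of all tested genes. In that fit the share of members was therefore not below that of all tested genes. The libraries of the groups did not overlap for 4 members (5.13%), against 31.1% of all tested genes: Atp5g1, Cox7a2l and Ndufs3 were higher in every Fbxw11 library and Atp5c1 was lower in each. The log2 fold change was above 0 in 37 members and below 0 in 41. Its median was -0.01, beside 0.00 for all tested genes, and its median size was 0.06, beside 0.09. The sets were not matched for level: the median control level was 34.8 FPKM for tested members and 7.72 for all tested genes.

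Summed over all members, the control libraries reached 3612, 3678 and 3443 FPKM for numbers 1, 2 and 3, and the Fbxw11 libraries 3718, 3639 and 3420. The sums of the groups overlapped and their ratio (Fbxw11 over control) was 1.004, beside 1.031 for the sum over all tested genes. Library 3 held the lowest sum in both groups. For 42 of the 78 members the 95% interval of the difference stayed within 1.2-fold in either direction, for 70 within 1.5-fold and for 76 within 2-fold. The forest plot of fold changes shows how the width of these intervals varied from gene to gene.

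**Figure D1:**
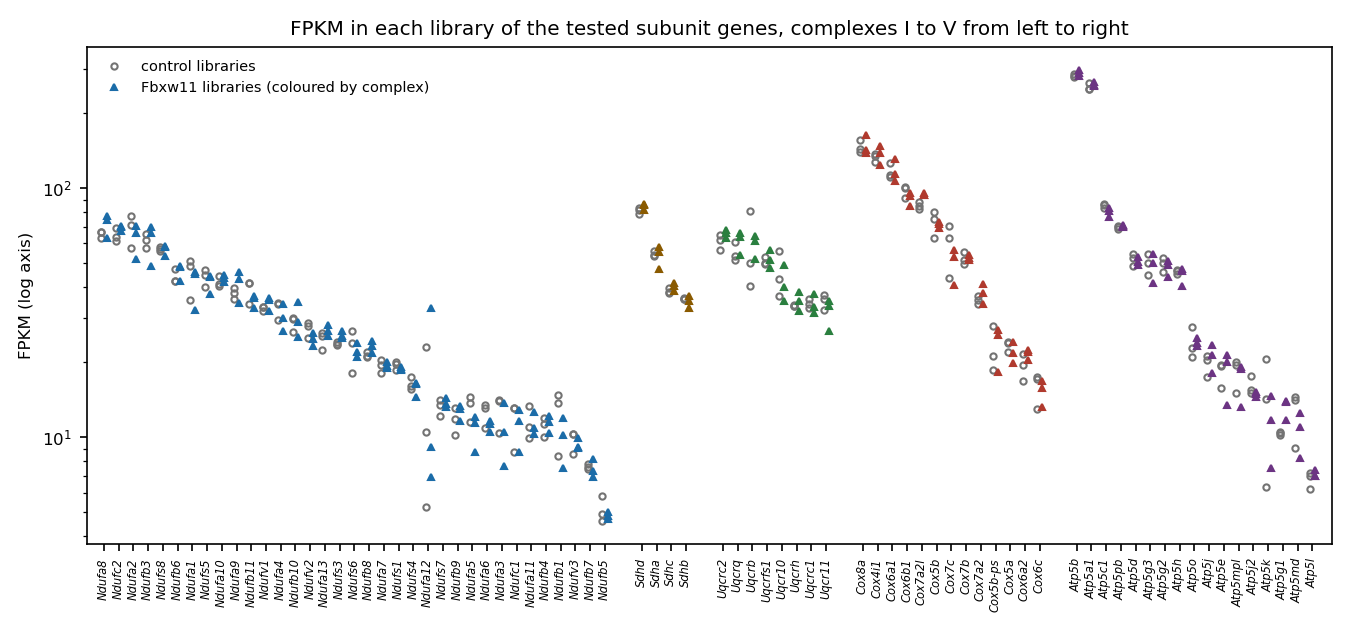
FPKM (log axis) of 77 tested subunit genes in each library, ordered by mean within complexes I to V from left to right. Open circles are control libraries and filled triangles are Fbxw11 libraries. The 2 groups lie over each other for most genes, from Atp5b at about 287 FPKM down to Ndufb5 at about 4.98.

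**Figure D2:**
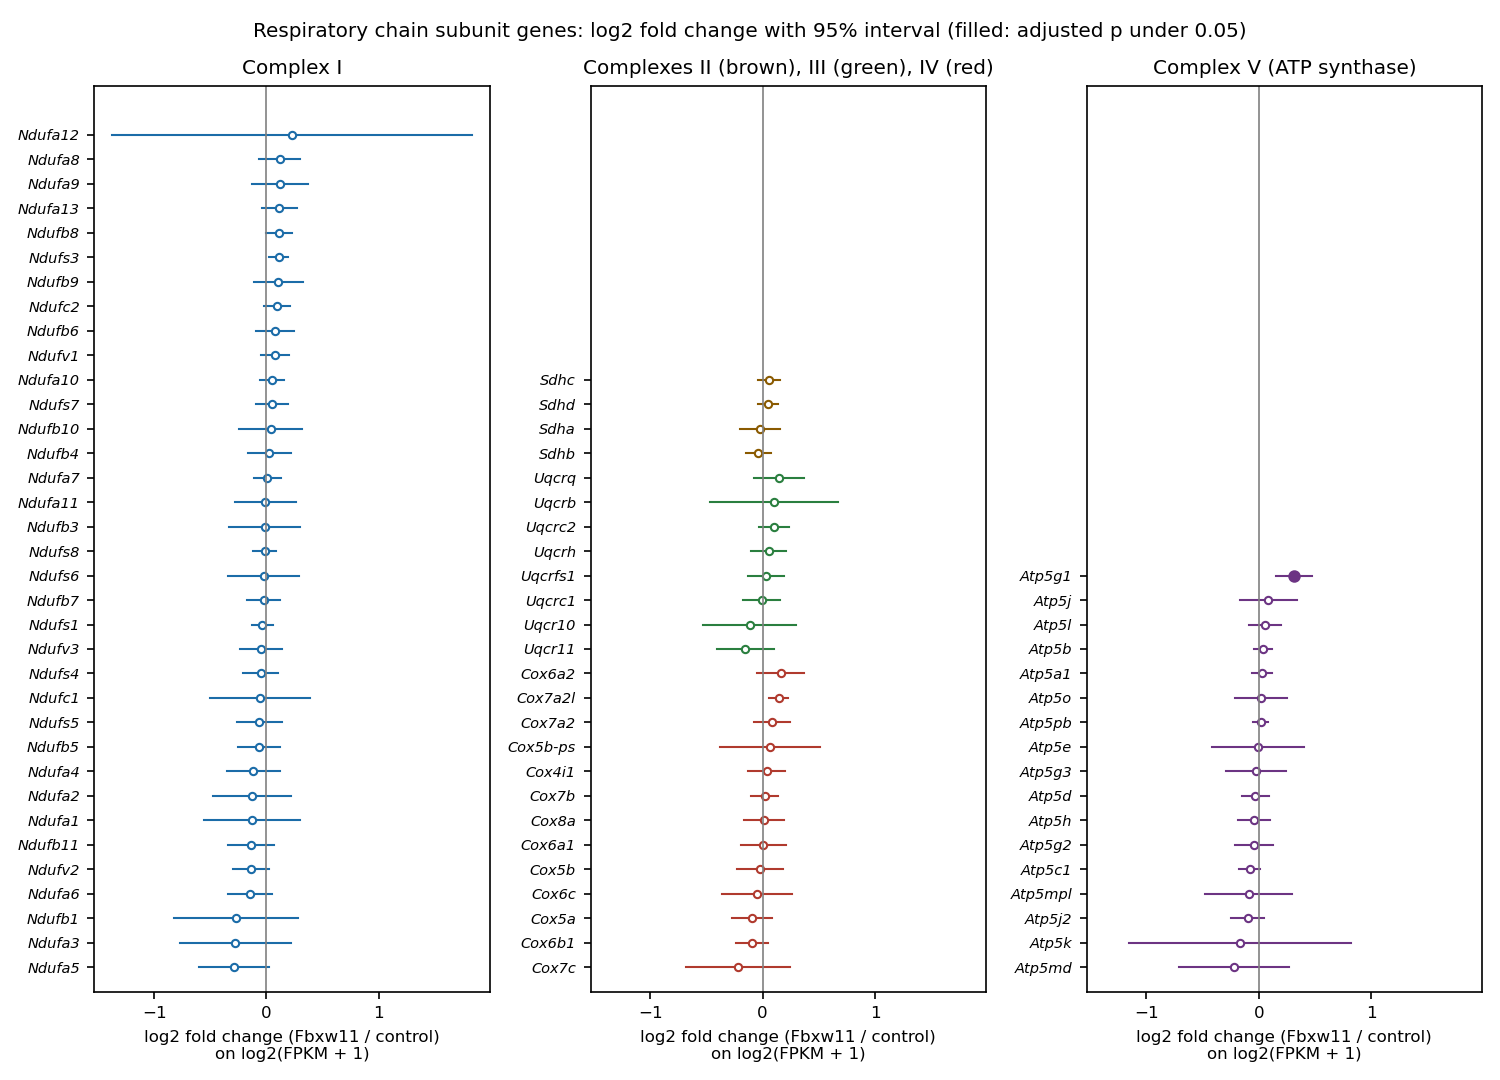
Log2 fold change of 77 tested members (Fbxw11 against control, log2(FPKM + 1) scale) with its 95% interval, by complex. The filled point is Atp5g1, the single member with an adjusted p under 0.05, and the widest interval belongs to Ndufa12, from -1.37 to 1.83.

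Complex I, the NADH dehydrogenase, gave no called gene among its 36 tested members, of which 1 had an unadjusted p under 0.05 (limma). Their median log2 fold change was -0.02, and their summed level was 1084 ± 52.1 FPKM in control and 1082 ± 88.8 in Fbxw11 libraries. The 7 nuclear genes of the core, which carry the flavin and the iron-sulfur clusters, summed to 272 ± 6.31 and 272 ± 8.36 FPKM, and 6 of the 7 intervals lay within 1.2-fold (Ndufv2 did not). Ndufv1, which binds NADH and the flavin, measured 32.9 ± 0.706 and 34.7 ± 2.22 FPKM. Its partner Ndufv2 measured 27.3 ± 2.03 and 24.7 ± 1.48, a log2 difference of -0.14 (limma, adjusted p = 0.263).

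Ndufs3, an iron-sulfur protein-fraction subunit of the core, was the complex I gene with the smallest p. Its level was 23.5, 24.2 and 23.7 FPKM in control libraries and 25.4, 26.7 and 25.1 in Fbxw11 libraries. The groups did not overlap, but the log2 fold change of 0.11 (95% interval 0.02 to 0.20) did not pass the threshold after adjustment (limma, adjusted p = 0.126). Ndufs1, the largest core subunit, measured 19.4 ± 0.759 and 18.9 ± 0.316 FPKM. Ndufs7 and Ndufs8, which carry iron-sulfur clusters close to the ubiquinone site, measured 13.3 and 57.2 FPKM in control and 13.7 and 56.5 in Fbxw11 libraries.

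The other complex I genes encode supernumerary subunits, which surround the core and are needed for assembly or stability. The lowest log2 fold change of all members was that of Ndufa5, at 13.7, 14.5 and 11.5 FPKM in control libraries and 11.4, 12.1 and 8.70 in Fbxw11 libraries. Its groups overlapped through library 3 of the control and library 2 of the Fbxw11 group, and the difference of -0.29 (95% interval -0.60 to 0.02) did not pass the test (limma, adjusted p = 0.233). Ndufa8 and Ndufc2 were among the most abundant, at 65.5 ± 2.25 and 64.8 ± 3.99 FPKM in control and 71.5 ± 7.40 and 69.1 ± 1.63 in Fbxw11 libraries. Ndufa12 had the highest log2 fold change of the complex, 0.23, but varied most within groups: 22.9, 10.5 and 5.26 FPKM in control libraries and 33.1, 9.18 and 6.96 in Fbxw11 libraries. Its coefficient of variation was 70.5% in control and 88.4% in Fbxw11 libraries, and its interval allowed a change in either direction.

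Ndufa4, named as a complex I subunit and now known to associate with complex IV, measured 32.9 ± 2.79 and 30.3 ± 3.74 FPKM. Its paralog Ndufa4l2, a hypoxia-responsive gene, lay under the filter, with 1 to 8 reads per library. It measured 0.0555, 0.0950 and 0.215 FPKM in control libraries and 0.449, 0.256 and 0.268 in Fbxw11 libraries, without overlap but at counts too low to test here. Ndufb11b, a copy of Ndufb11, was seen in a single control library. Ndufb2 was also under the filter, at 0.342 and 0.259 FPKM. The table divides by a length of 5628 bases for this gene, while its protein-coding transcripts in GENCODE run from 455 to 4371 bases.

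Complex II, succinate dehydrogenase, oxidises succinate to fumarate and is also an enzyme of the tricarboxylic acid cycle. None of its 4 genes was called or had an unadjusted p under 0.05 (limma), all 4 intervals lay within 1.2-fold, and the summed level was 210 ± 4.26 FPKM in control and 213 ± 8.75 in Fbxw11 libraries. The flavoprotein gene Sdha measured 54.3 ± 1.24 and 53.7 ± 5.47 FPKM, and the iron-sulfur subunit gene Sdhb measured 35.999 ± 0.153 and 35.1 ± 2.04. The membrane anchors Sdhc and Sdhd measured 38.7 ± 1.04 and 81.5 ± 2.21 FPKM in control, and 40.3 ± 1.47 and 84.3 ± 2.62 in Fbxw11 libraries.

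Complex III, cytochrome bc1, hands electrons from ubiquinol to cytochrome c. None of its 8 genes was called or had an unadjusted p under 0.05 (limma), with a median log2 fold change of 0.04 and summed levels of 373 ± 23.8 and 381 ± 18.0 FPKM. The Rieske iron-sulfur protein gene Uqcrfs1 measured 50.9 ± 1.91 and 52.0 ± 4.51 FPKM. The core protein genes Uqcrc1 and Uqcrc2 measured 34.4 ± 1.44 and 61.0 ± 4.25 FPKM in control, and 34.2 ± 3.11 and 65.5 ± 2.24 in Fbxw11 libraries.

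The small complex III subunits varied more. Uqcrq, a small membrane subunit, had the highest log2 fold change of the complex, at 53.3, 60.6 and 51.6 FPKM in control libraries and 66.3, 63.9 and 53.8 in Fbxw11 libraries (0.15, 95% interval -0.07 to 0.37; limma, adjusted p = 0.383). Uqcr11 had the lowest, at 35.9, 37.4 and 32.6 FPKM in control libraries and 35.2, 33.6 and 26.6 in Fbxw11 libraries (-0.15, 95% interval -0.41 to 0.10; limma, adjusted p = 0.437). The groups overlapped for both genes. Uqcrb spread from 40.3 to 80.6 FPKM within the control libraries alone, so its interval, from -0.47 to 0.67, is among the widest.

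Complex IV, cytochrome c oxidase, is the terminal enzyme, and several of its nuclear subunits exist in a widely expressed form and in forms restricted to tissues such as muscle, lung or testis. None of its 13 tested genes was called and 1 had an unadjusted p under 0.05 (limma), and the summed level was 881 ± 37.4 FPKM in control and 884 ± 12.7 in Fbxw11 libraries. The widely expressed forms dominated. Cox8a measured 147 ± 8.54 and 148 ± 13.7 FPKM, Cox4i1 133 ± 5.58 and 137 ± 12.1, and Cox6a1 117 ± 8.08 and 117 ± 12.3. Cox5a and Cox5b, subunits that pack against the catalytic core, measured 23.4 ± 1.19 and 72.8 ± 8.91 FPKM in control, and 21.9 ± 2.15 and 71.4 ± 1.85 in Fbxw11 libraries. Cox6b1, which faces the side of cytochrome c, measured 97.4 ± 5.48 and 91.2 ± 5.71 FPKM. Cox7c had the lowest log2 fold change of the complex, -0.22, with levels of 59.0 ± 13.7 and 50.02 ± 8.03 FPKM (limma, adjusted p = 0.539). Cox7a2 and Cox7b, small membrane subunits, measured 35.5 ± 1.29 and 52.2 ± 3.17 FPKM in control, and 37.8 ± 3.38 and 52.8 ± 1.25 in Fbxw11 libraries.

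Of the restricted forms, the heart and skeletal muscle form Cox6a2 was the one well above the filter. It measured 16.9, 19.4 and 21.7 FPKM in control libraries and 22.5, 20.5 and 21.9 in Fbxw11 libraries, overlapping between the groups (log2 fold change 0.16; limma, adjusted p = 0.315). It made up 14.2% ± 1.79 of the summed FPKM of Cox6a1 and Cox6a2 in control and 15.6% ± 1.54 in Fbxw11 libraries. Cox4i2, known from lung, lay under the filter at 0.662 and 0.784 FPKM with 7 to 17 reads, and so did the muscle form Cox7a1 at 0.739 and 1.06 FPKM with 6 to 13 reads. Cox6b2 and Cox8b were each seen in a single library, and Cox7b2 and Cox8c had 0 reads in all 6, as did the second Atp5o row.

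Cox7a2l, a relative of Cox7a2 that is known to join complex III to complex IV in supercomplexes, was the complex IV gene with the smallest p. It measured 84.7, 88.3 and 82.8 FPKM in control libraries and 95.2, 93.7 and 93.7 in Fbxw11 libraries. Every Fbxw11 library was above every control library, and the Fbxw11 libraries lay close together. The mean was 1.11-fold higher (log2 fold change 0.14, SE 0.03, 95% interval 0.06 to 0.22). At an adjusted p of 0.0501 (limma) the gene missed the threshold by a narrow margin. It passed only when the filter was raised to a mean of 5 FPKM (limma, adjusted p = 0.0427), and the adjusted p ranged from 0.0427 to 0.158 over 14 alternatives.

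Complex V holds the members with the highest FPKM and the one that rose. Its summed level was 1030 ± 13.9 FPKM in control and 1033 ± 39.2 in Fbxw11 libraries. The catalytic head is built around the alpha and beta subunits, encoded by Atp5a1 and Atp5b. Atp5b measured 283 ± 4.69 and 291 ± 8.21 FPKM, and Atp5a1 measured 255 ± 8.67 and 261 ± 5.55, with both intervals within 1.2-fold. Atp5c1, the gamma subunit that turns inside the head, measured 86.0, 85.3 and 83.3 FPKM in control libraries and 76.5, 83.1 and 81.3 in Fbxw11 libraries. Each Fbxw11 library lay below each control library, but the difference of -0.08 (95% interval -0.17 to 0.01) did not pass the test (limma, adjusted p = 0.273). The peripheral stalk gene Atp5pb measured 69.7 ± 0.863 and 70.5 ± 0.596 FPKM. The 5 small membrane subunit genes (Atp5j2, Atp5k, Atp5l, Atp5md and Atp5mpl) summed to 67.3 ± 13.4 and 61.0 ± 8.88 FPKM, with none called. Among them Atp5md had the lowest log2 fold change of complex V, -0.22, at 12.6 ± 3.05 and 10.6 ± 2.16 FPKM (limma, adjusted p = 0.565).

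Subunit c forms the ring that turns as protons pass, and 3 nuclear genes encode it, Atp5g1, Atp5g2 and Atp5g3. Their import sequences differ and the mature protein is the same, so their coding sequences are alike at the end that encodes it. Over the last 225 coding bases in GENCODE, Atp5g1 and Atp5g2 shared 191 bases (84.9%), Atp5g1 and Atp5g3 shared 180 (80%), and Atp5g2 and Atp5g3 shared 177 (78.7%). The longest run of identical bases was 20, between Atp5g1 and Atp5g2. The last 75 coding bases of each are printed to show how a read can tell the genes apart, with capitals at the 20 positions where the 3 genes are not all the same.
Atp5g1: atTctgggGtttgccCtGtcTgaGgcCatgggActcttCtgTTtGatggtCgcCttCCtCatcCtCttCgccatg
Atp5g2: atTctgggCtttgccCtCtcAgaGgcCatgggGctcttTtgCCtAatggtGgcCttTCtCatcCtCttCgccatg
Atp5g3: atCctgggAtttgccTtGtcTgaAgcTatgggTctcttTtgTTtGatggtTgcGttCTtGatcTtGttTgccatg

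Atp5g1 (ENSMUSG00000006057, minus strand of chromosome 11, 95959678 to 95966496 in the coordinates of the file) measured 10.5, 10.4 and 10.2 FPKM in control libraries and 11.7, 13.8 and 14.0 in Fbxw11 libraries. All control libraries lay within a narrow band, and every Fbxw11 library was above it, with library 1 the nearest. The mean was 10.4 ± 0.142 FPKM in control and 13.2 ± 1.25 in Fbxw11 libraries, 1.27-fold higher (log2 fold change 0.31, SE 0.07, 95% interval 0.15 to 0.47; limma, adjusted p = 0.0350). The rise rested on 847 to 1212 reads per library. The call was kept under 6 of 14 alternatives, and the log2 fold change lay between 0.26 and 0.39 in all of them. It was lost when any control library was left out (limma, adjusted p = 0.105, 0.111 and 0.0907 without control libraries 1, 2 and 3) or when Fbxw11 library 2 or 3 was (0.114 and 0.0806).

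Atp5g2 and Atp5g3, each several times higher in FPKM than Atp5g1, did not pass the test. Atp5g2 measured 50.2, 52.4 and 46.1 FPKM in control libraries and 51.0, 49.3 and 44.0 in Fbxw11 libraries (-0.04, 95% interval -0.21 to 0.12; limma, adjusted p = 0.752). Atp5g3 measured 54.2, 49.9 and 44.7 FPKM in control libraries and 54.6, 50.2 and 41.7 in Fbxw11 libraries (-0.03, 95% interval -0.29 to 0.24; limma, adjusted p = 0.916). In both genes the groups overlapped and library 3 was the lowest of each group. The 3 genes together summed to 110 ± 7.50 FPKM in control and 110 ± 9.26 in Fbxw11 libraries. Atp5g1 made up 9.12%, 9.26% and 10.1% of that sum in control libraries and 10.0%, 12.2% and 14.0% in Fbxw11 libraries, so the shares overlapped at Fbxw11 library 1 and control library 3.

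**Figure D3:**
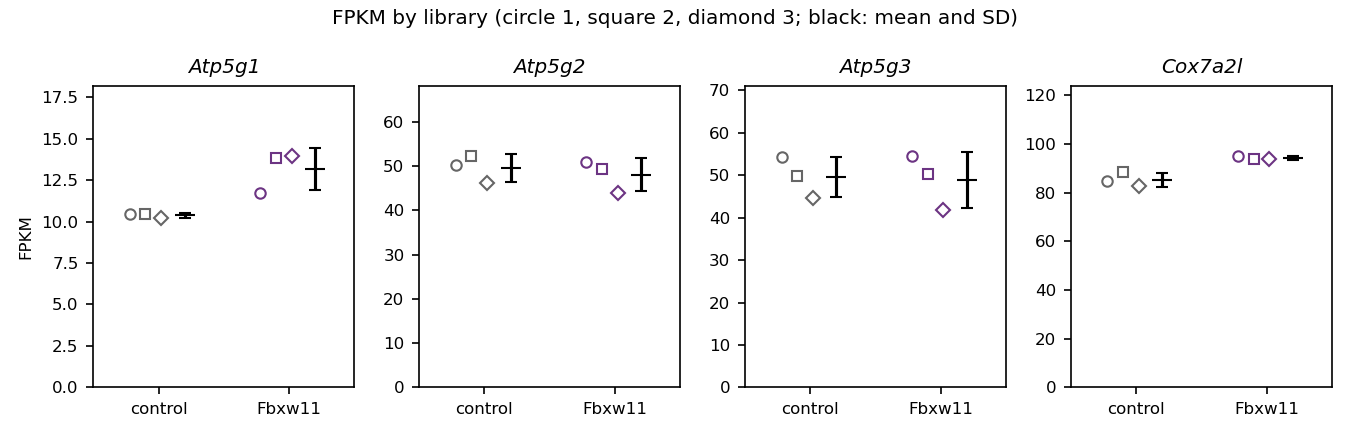
FPKM in each library of the 3 subunit c genes and of Cox7a2l, with the axis starting at 0. Circles, squares and diamonds are libraries 1, 2 and 3, and the black bar is the mean ± SD. Atp5g1 and Cox7a2l are higher in every Fbxw11 library, and Atp5g2 and Atp5g3 are lowest in library 3 of each group.

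How well a read can be placed differs between these genes. For each gene the shortest of the GENCODE transcripts with its longest coding sequence was cut into 50-base windows. Of those of Atp5g1, 66.0% also occur in transcripts of 3 other annotated genes. For Atp5g2 the share was 100%, with 2 other genes, and for Atp5g3 it was 0%. The table divides by a length of 4912 bases for Atp5g1, whose 4 protein-coding transcripts in GENCODE run from 596 to 4715 bases (median 2675.5). Its level per transcript, and its share of the subunit c sum, depend on which of these the cells make, which these values do not show. The sources used here do not say how reads that match more than 1 gene were placed, and the level and change of Atp5g1 are uncertain to that extent. Among tested members, 8 had over 50% of such windows shared and 30 had none, and 39 had a length in the file over 2 times the median of their protein-coding transcripts. The order of levels between members is uncertain for the same reason. Some reads may also belong to a neighbour: 17 tested members overlap a gene of at least 1 FPKM on the other strand, and the sources used here do not say whether strand was kept.

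The promoters of the subunit c genes were read as well, because Atp5g1 was the one of the 3 that passed the test. The 120 bases before the start of each gene in RefSeq (assembly GRCm38.p6, minus strand) lie at chr11:96075632-96075751 for Atp5g1, chr15:102671048-102671167 for Atp5g2 and chr2:73911327-73911446 for Atp5g3. Capitals mark the letters GCATGCG, the core of the site of NRF1 (nuclear respiratory factor 1), on either strand. The motif occurs in the Atp5g2 stretch, where its matches on both strands overlap, and its letters are not in the other stretches.
Atp5g1: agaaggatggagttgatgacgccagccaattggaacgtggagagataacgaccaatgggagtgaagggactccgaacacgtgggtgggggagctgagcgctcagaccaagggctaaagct
Atp5g2: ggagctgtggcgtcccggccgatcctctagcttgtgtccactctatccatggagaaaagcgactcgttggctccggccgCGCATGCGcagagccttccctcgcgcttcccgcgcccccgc
Atp5g3: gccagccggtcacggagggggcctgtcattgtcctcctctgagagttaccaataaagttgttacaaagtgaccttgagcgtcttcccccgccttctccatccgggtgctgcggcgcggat

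Motifs of 3 factors known to regulate respiratory chain genes were counted on both strands over 300 bases per promoter (250 before and 50 after the start). RefSeq promoters were found for 64 of the 78 tested members, matched by Ensembl identifier or else by symbol or synonym. A gene was counted if any of its promoters held the motif. GCATGCG of NRF1 was present in 17.2% of these 64 members (11 genes), against 8.08% of 7895 tested genes and 4.01% of all 27025 genes with a promoter. CCGGAAG, bound by ETS factors such as GABP (nuclear respiratory factor 2), was present in 26.6%, against 23.2% and 9.93%. AAGATGG of YY1 was present in 17.2%, against 9.34% and 7.28%. At least 1 of the 3 was found in 50% of members, against 35.7% of tested genes. Sdhb, Uqcrc1, Cox6a1, Ndufa8 and Atp5l are among the members with the NRF1 letters. The letters of the ETS and YY1 motifs can overlap, since CCGGAAG ends in the AAG with which AAGATGG starts. A match is a description of the sequence, not evidence of binding.

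Within each group many of the members moved together between libraries. On log2(FPKM + 1), library 3 was the lowest of its group for 50 of 78 members in control (64.1%) and for 54 in Fbxw11 (69.2%). It was the lowest in both groups for 40 (51.3%), against 14.5% of all tested genes. The median difference of library 3 from the mean of libraries 1 and 2 was -0.10 in control and -0.14 in Fbxw11 libraries, and 0.00 in both for all tested genes. Across the 78 members this difference in control and in Fbxw11 libraries had a Pearson r of 0.73 (0.19 across all tested genes). By complex it was 0.80, 0.27, 0.12, 0.71 and 0.84 for I to V. These are descriptions only, since genes of a library share its preparation and depth. Ndufa12 and Atp5k, named here after their values were seen, were the furthest down in library 3. The difference was -1.40 in control and -1.23 in Fbxw11 libraries for Ndufa12, and -1.31 and -0.73 for Atp5k. Both genes enter the correlations given here, which can lean on such outlying points, and r without them was not computed. Atp5k measured 14.2, 20.7 and 6.32 FPKM in control libraries and 14.7, 11.7 and 7.53 in Fbxw11 libraries. Some members went the other way in the Fbxw11 group, where library 3 was the highest for Atp5g1 and also, among others, for Cox6a1 and Cox8a.

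The difference ran with transcript length, taken as the median over each gene's protein-coding transcripts in GENCODE. Of 30 members under 600 bases, 63.3% were lowest in library 3 of both groups, with a median difference of -0.22 (mean of both groups). From 600 to under 1000 bases it was 55.2% of 29 members, with a median of -0.12. At 1000 bases and over it was 22.2% of 18 members, with a median of -0.01. All tested genes showed the same order with smaller values: 28.7%, 20.1% and 11.9%, with medians of -0.03, -0.01 and 0.01. The Spearman correlation of the difference with length was 0.41 over 77 members and 0.11 over 9497 tested genes, as a description. By complex it was 0.19, 0.71, 0.36 and 0.69 for I, III, IV and V. Within the length classes of members it was 0.57, -0.13 and 0.09, from short to long. The Pearson r between the groups was 0.65 for members under 600 bases, 0.84 from 600 to under 1000 and -0.20 at 1000 and over. The outlying Atp5k is in the first of these classes and Ndufa12 in the second. Members were short by this measure, with a median of 651 bases against 2094. For single genes it can lie far from the transcript used for the windows, as for Ndufs1 (651 against 2590 bases) and Atp5g1 (2675.5 against 596). The mitochondrially encoded subunit genes moved otherwise, with a median of -0.17 in control and 0.09 in Fbxw11 libraries. The part of transcript length in the pattern was not tested. Without library 3 of both groups, Atp5g1 lost its call (limma, adjusted p = 0.131), and Ndufa9 and Ndufb6 gained one, at log2 fold changes of 0.27 and 0.19 (limma, adjusted p = 0.0451 and 0.0450). Both were named after their values were seen, and 6.44% of all tested genes were called in that fit.

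**Figure D4:**
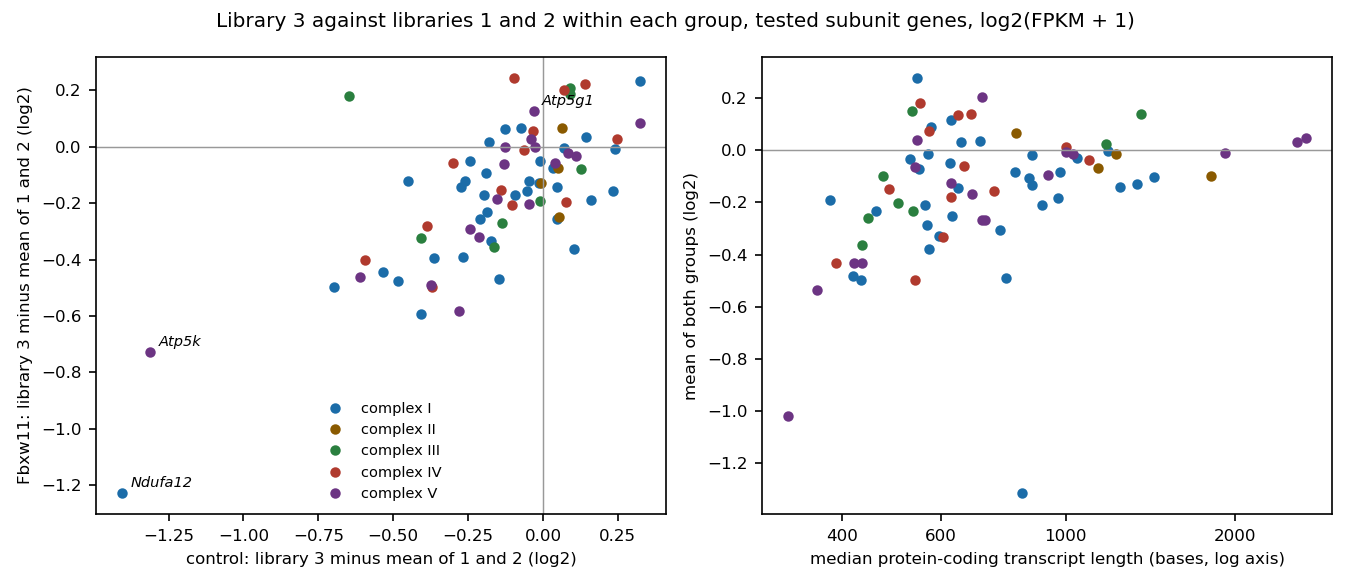
Difference of library 3 from the mean of libraries 1 and 2, on log2(FPKM + 1), for 77 tested members, coloured by complex. The left panel sets the Fbxw11 group against the control group, with most points below 0 in both, and the right panel sets the mean of both groups against the median transcript length (log axis) of those with a length in GENCODE, where the lowest values belong to genes under 1000 bases.

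Spread within groups was a little wider in members than elsewhere: the median coefficient of variation was 6.99% in control and 8.04% in Fbxw11 libraries, beside 5.17% and 5.75% over all tested genes. Of the 78 tested members, 5 exceeded 25% in at least 1 group.

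The partners of these genes in the pathway were examined from lists. The 13 genes of the mitochondrial genome that encode subunits were all tested, and none was called by limma. Of these, 1 had an unadjusted p under 0.05, and voom on recovered reads called 2. Their sum was 11882 ± 706 FPKM in control and 11485 ± 960 in Fbxw11 libraries, with a median log2 fold change of -0.04. Means over the 6 libraries ran from 2.69 FPKM (mt-Nd3) to 6473 (mt-Co1), and mt-Co1 made up the largest part of the sum. Of the same complex as mt-Co1, mt-Co2 and mt-Co3 lay at 38.3 and 22.8 FPKM. Why these levels differ was not tested. The catalytic complex IV subunit mt-Co1 measured 6508 ± 317 and 6439 ± 584 FPKM, and mt-Cytb of complex III measured 1594 ± 105 and 1523 ± 106. Of 4 tested genes among subunits outside the name rule and electron carriers, none was called and none had an unadjusted p under 0.05: cytochrome c (Cycs) measured 50.4 ± 1.66 and 51.6 ± 1.56 FPKM, and cytochrome c1 (Cyc1) 41.1 ± 1.69 and 43.7 ± 5.18. Of 13 tricarboxylic acid cycle genes none was called by limma or voom, 2 had an unadjusted limma p under 0.05, and all 13 intervals lay within 1.2-fold. Dld, a subunit shared by several dehydrogenase complexes, measured 101 ± 3.10 and 111 ± 6.27 FPKM, and malate dehydrogenase Mdh2 measured 103 ± 1.42 and 102 ± 1.65.

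Assembly factors help build the complexes without remaining in them. Of 51 in the table, 48 were tested, 1 rose and none fell, with a median log2 fold change of 0.01. The gene that rose was Uqcc3, an assembly factor of complex III, at 9.48, 8.998 and 8.40 FPKM in control libraries and 11.1, 12.1 and 11.1 in Fbxw11 libraries. Its groups did not overlap, and the log2 fold change was 0.32 (SE 0.06; limma, adjusted p = 0.0202) on 117 to 178 reads. The call was kept under 8 of 14 alternatives, with adjusted p from 0.0148 to 0.0921. It was lost with voom on recovered reads, with no filter, without control library 2, without Fbxw11 library 1 or 2, and without library 3 of both groups.

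Of 15 nuclear regulators and mitochondrial transcription or replication factors, 13 were tested, none rose and 1 fell, with a median log2 fold change of -0.10 and 11 of 13 below 0. The gene that fell was Twnk, the helicase of mitochondrial DNA replication, at 6.39, 5.70 and 5.85 FPKM in control libraries and 4.85, 5.12 and 4.87 in Fbxw11 libraries. Every Fbxw11 library was below every control library (-0.23, SE 0.05; limma, adjusted p = 0.0441), and the call was kept under 5 of 14 alternatives, none of which left out a library. Gabpa, the DNA-binding subunit of GABP, measured 18.8 ± 0.199 and 17.1 ± 0.104 FPKM and missed the threshold (-0.13; limma, adjusted p = 0.0504). It passed under 4 of 14 alternatives, among them the TPM scale. Gabpa was named after its values were seen. The coactivator genes Ppargc1a and Ppargc1b were under the filter.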

How the data were processed

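RNA of 6 libraries was sequenced. The deposited table holds FPKM for 56748 genes, scaled by the authors to gene length and library size, with 1 column per library. The submitters' processing notes name mm10, but 1.14% of members (1 of 88) have the same start and end as in GENCODE vM21 of that build, so printed file coordinates have no stated build. The sources used here name no aligner, counter or annotation.

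Reads were recovered from FPKM times gene length, which fell on whole reads for 100% of values (tolerance 0.02 reads). The authors' library size was 1.014 to 1.018 times that sum in controls, and 0.987 to 0.993 times it in the Fbxw11 group. Differences were tested with limma 3.58.1 (R 4.3.3; eBayes with a mean-variance trend) on log2(FPKM + 1), two-sided, with no covariate, for genes whose mean reached 1 FPKM, with Benjamini-Hochberg adjustment over all 10898. The scripts were tested on simulated data. A fold change on this scale understates the change of low genes. Reads are not independent molecules, and read numbers cover counting error only. No unused sample columns were present.

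Members and lists were chosen with earlier results of these data known. Named genes were those past the threshold, the 3 most abundant, the extremes of fold change and the smallest p of each complex, tissue-specific or duplicated forms and the core subunits; of other lists, the called genes or else the 2 most abundant. Alternatives changed the pseudocount (0.1), the filter (none, or 5 FPKM), the scaling (TPM, plain read sums), the test (voom on recovered reads), the replicate block and the libraries included. Transcript lengths, shared windows and coding bases are from GENCODE vM21, and promoters from RefSeq (GRCm38.p6). A gene that the rule names is not reported here by name; it stays in the counts and sums and is left out of the figures.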

Additional observations from a re-analysis of the deposited data

How the results depend on the processing

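Of 1329 combinations of 95 genes (78 of them members) and 14 alternatives, 1297 stayed on the same side of the threshold, 23 lost a call, 9 gained one and no call reversed. In 142 of the 1297 the sign turned, with no call in either fit. Among all tested genes, 1007 calls became 596 with no filter, 1559 with voom on recovered reads, and 409 to 801 with 1 library left out (448 without control 1, 409 without control 2, 567 without Fbxw11 1, 533 without Fbxw11 2). Of the 1007 calls 501 were upward, against 353 of 1070 on the TPM scale and 381 of 1072 with plain read sums, which move the median of all genes from 0.00 to -0.03. The single called member became 0 with no filter, 2 with a filter of 5 FPKM (Atp5g1 and Cox7a2l), 0 to 1 with 1 library left out (0 without control 1, 2 or 3 or without Fbxw11 2; without Fbxw11 3 it was Ndufa8, named after its values were seen) and 2 without library 3 of both groups. Members at an unadjusted limma p under 0.05 went from 3 to 23 of 78 there, against 25.2% of all tested genes in that fit. Without library 3 of both groups the median log2 fold change became 0.0667 for complex II and -0.0256 for complex III, and without Fbxw11 library 3 it became 0.0401 for complex V, where leaving out single libraries gave -0.0748 to 0.0401. With fewer libraries, where the test has less power, some of these counts fell and others rose. Why the counts and medians moved was not tested. Calls among the regulators ranged from 0 to 3. Levels under the filter rest on few reads and were not tested.

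Replicate numbers are shared by the groups, but nothing in the labels says what they mark. Deviations of same-numbered libraries from their group means correlated at 0.036, 0.041 and 0.19 for numbers 1, 2 and 3, and control 1 correlated best with Fbxw11 2 (0.15). Number 3 with number 3 was the highest of all pairs of libraries across the groups, but not every same-numbered pair exceeded 0.1, and the numbers were not taken as pairs. With the replicate number as a block, 621 genes were called (5.7%), and 1 member, Ndufa5 (log2 fold change -0.29; limma, adjusted p = 0.0397), in place of Atp5g1 (0.31; limma, adjusted p = 0.0634). The block also brought 16 of the 78 members to an unadjusted limma p under 0.05, against 23.6% of all tested genes.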
